A study of Mus musculus with 9 samples.

Results

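A set of genes of sulfur amino acid metabolism was followed through cultured mouse astrocytes that had been without glucose for 1 day. They are Cdo1, Csad, Slc6a6, Cbs, Mpst, Ethe1, Suox and Mat2a, 8 of the 18061 genes listed. They were selected on measured values, namely the per-library CPM of Cdo1 between the treatment groups and of its pathway neighbours between groups and library sets, so the values of the 8 genes between groups and between library sets are given as a description, with standard errors and no p-value.

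Cells make cysteine from methionine and spend it in several ways. Methionine adenosyltransferase turns methionine into S-adenosylmethionine, and the homocysteine left after methyl transfer is joined to serine by cystathionine beta-synthase on the way to cysteine. Cysteine dioxygenase oxidises cysteine to cysteine sulfinate, which is decarboxylated to hypotaurine and then becomes taurine, an osmolyte that astrocytes take up, store and release. Other enzymes draw hydrogen sulfide from cysteine, and mitochondria oxidise that sulfide through sulfite to sulfate.

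The cells were wild-type (WT) cortical astrocytes of C57BL/6 mice, taken from P1 pups and grown as primary cultures. The Aβ plus acetate group received 1 µM amyloid-beta (Aβ) oligomers for 5 days from day 8 in culture and 10 mM sodium acetate for the last day. The acetate group received 10 mM sodium acetate for that last day without Aβ. The control group received neither. Every culture, controls included, was moved to glucose-free medium on day 11 and harvested on day 12, and each group has 3 libraries described by their titles as biological replicates. Aβ without acetate, and cells kept in glucose, were not analysed here. Values are CPM as the authors deposited them, the counts of a gene per 1000000 counted in its library, and the implied depth was 22155264 to 57027499 reads per library.

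All 10 astrocyte markers checked, among them Gfap, Aqp4 and Aldh1l1, were at or above 1 CPM in every library. The library names come in 2 styles, which split the samples into 2 library sets. Set 2 holds Aβ plus acetate 2 and 3, acetate 2 and 3, and control 3. Set 1 holds Aβ plus acetate 1, acetate 1, and controls 1 and 2. What distinguishes the sets is not given in the sources used here. The first principal component, 89.7% of the variance, separated them, so the set was a term of the model and differences within each set are given beside the fitted ones. Within a set each group has only 1 or 2 libraries, so the signs of these differences are a description.

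Cdo1, cysteine dioxygenase, which commits cysteine to cysteine sulfinate and taurine, was lowest in the acetate group and overlapped between the other two. Its level was 15.6, 13.5 and 14.5 CPM in the 3 Aβ plus acetate libraries, 11.27, 11.03 and 10.93 CPM in the 3 acetate libraries, and 13.3, 14.5 and 14.8 CPM in the 3 control libraries. All 3 acetate libraries lay below the other 6, and the Aβ plus acetate libraries overlapped the controls. The means were 14.5 ± 1.06 CPM with Aβ plus acetate, 11.1 ± 0.175 CPM with acetate and 14.2 ± 0.807 CPM in controls (SD, n = 3 each). Relative to its mean, the acetate SD is smaller than the counting error of those libraries from implied reads, 4.58 to 5.17%. It therefore understates the uncertainty of the acetate level. In order of level, Aβ plus acetate and control were neighbours that did not differ beyond their spread, and acetate stood apart below both.

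Relative to control, the acetate mean was 21.8% lower, a fitted difference of log2(CPM + 1) of -0.32 (SE 0.10). Within sets it was -0.40 in set 2 and -0.28 in set 1. Relative to acetate alone, the Aβ plus acetate mean was 31.1% higher, at 0.36 (SE 0.10) on the same scale, with 0.32 in set 2 and 0.43 in set 1. Relative to control, Aβ plus acetate stood at 0.04 (SE 0.10), with -0.07 in set 2 and 0.16 in set 1. These comparisons are not independent, since each group of libraries enters a pair of them. In bulk RNA, fewer cells expressing a gene and less of its RNA per cell cannot be told apart.

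**Figure D1:**
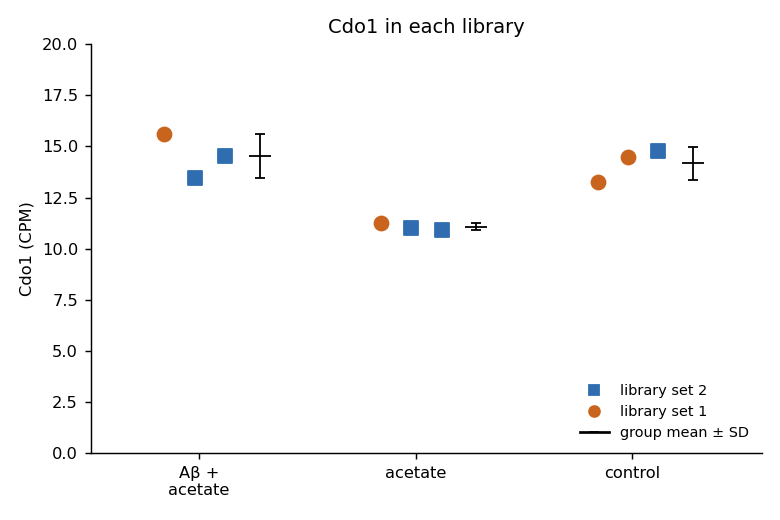
Cdo1 level in CPM (vertical axis, from 0) in each of the 9 libraries by group, with blue squares for library set 2, orange circles for library set 1, and bars for the group mean ± SD (n = 3 each). The acetate libraries sit between 10.9 and 11.3 CPM, below all libraries of the other groups, in both sets.

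Cdo1 was the only one of the 8 genes whose acetate libraries lay entirely below the controls, a pattern shown in that direction by 1.55% of the 14058 genes tested. No member lay entirely above the controls with acetate (0.612% of genes). Cdo1 was also the only member lying entirely above acetate with Aβ plus acetate (1.91% of genes), and no member lay entirely below it (0.555% of genes). An acetate group below every library of both other groups was found for 0.27% of genes, Cdo1 among them. Between Aβ plus acetate and control, every member overlapped, against 1.53% of genes entirely higher and 1.37% entirely lower. The set of genes was chosen around the low acetate level of Cdo1, so these shares describe how common the pattern is and add no support to it.

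The limma fit called 0 of 14058 genes, 0% of those tested, in each of the 3 treatment comparisons at an adjusted p of 0.05. Genes with an unadjusted p under 0.05 numbered 453 for acetate against control. With Aβ plus acetate they numbered 436 against acetate and 505 against control. Each count is a smaller share of the 14058 genes than the 0.05 that such a threshold passes where no gene differs. All 8 members passed the filter of at least 1 CPM in at least 3 libraries. Cdo1 rested on an implied 321 to 775 reads per library, for a counting error of 3.59 to 5.58%. Cdo1 lies on chromosome 18, 46713193 to 46728503, minus strand (mm10), and overlaps no other annotated gene.

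The next step of the route, Csad (cysteine sulfinate decarboxylase, which makes hypotaurine), had overlapping groups in all 3 comparisons. Csad had 43.4, 30.2 and 30.6 CPM with Aβ plus acetate, 41.3, 31.9 and 33.2 CPM with acetate, and 43.1, 42.2 and 36.6 CPM in controls. The highest library of every group was one of set 1, while the set 2 libraries of both treated groups were the lowest. Acetate against control was -0.08 (SE 0.08) on the log2 scale, with -0.16 in set 2 and -0.05 in set 1. Aβ plus acetate against acetate was -0.04 (SE 0.08), with -0.10 in set 2 and 0.07 in set 1. Csad was thus the one member besides Cdo1 that was lower with acetate in both sets, by no more than its standard error in the joint fit. Aβ plus acetate against control was -0.12 (SE 0.08), with -0.26 in set 2 and 0.02 in set 1.

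Slc6a6, the sodium- and chloride-coupled transporter that brings taurine into cells, differed far more between the library sets than between the treatments. It had 194, 35.3 and 38.3 CPM with Aβ plus acetate, 133, 43.9 and 44.9 CPM with acetate, and 175, 164 and 41.3 CPM in controls. Every library above 100 CPM was one of set 1, and the groups hold unequal numbers of them. With the set in the model, acetate against control was -0.06 (SE 0.14), Aβ plus acetate against acetate was 0.0037 (SE 0.13), and Aβ plus acetate against control was -0.05 (SE 0.14). The sets gave opposite signs in all 3 comparisons, for example -0.27 in set 2 and 0.54 in set 1 for Aβ plus acetate against acetate.

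Cbs, cystathionine beta-synthase, had 24.4, 18.0 and 16.6 CPM with Aβ plus acetate, 23.4, 18.9 and 17.4 CPM with acetate, and 27.7, 22.6 and 15.2 CPM in controls. Its groups overlapped, and the fitted difference of acetate from control was 0.07 (SE 0.11), with 0.24 in set 2 and -0.09 in set 1. Aβ plus acetate stood at -0.02 (SE 0.11) against acetate and 0.05 (SE 0.11) against control. Mat2a, the catalytic subunit of the methionine adenosyltransferase found outside adult liver, had 206, 260 and 259 CPM with Aβ plus acetate, 213, 247 and 239 CPM with acetate, and 207, 221 and 240 CPM in controls. Its groups overlapped, and the fitted difference of acetate from control was -0.01 (SE 0.08). Aβ plus acetate stood at 0.05 (SE 0.07) against acetate and 0.04 (SE 0.08) against control.

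On the sulfide side, Mpst makes persulfide and sulfide from 3-mercaptopyruvate, a product of cysteine. Mpst had 86.2, 57.9 and 55.8 CPM with Aβ plus acetate, 70.5, 62.6 and 47.8 CPM with acetate, and 80.8, 65.8 and 44.9 CPM in controls. Within each set the Aβ plus acetate level was above the mean of controls, by 0.33 in set 2 and 0.24 in set 1. These differences rest on 1 control library in set 2 and 1 Aβ plus acetate library in set 1. The joint fit gave 0.25 (SE 0.12). This value was 0.07 without the set term, 0.39 with the library-number block, and 0.16 to 0.34 with 1 library left out (0.16 without control 3). Mpst was the only member with the same sign in both sets in that comparison. Acetate against control was 0.12 (SE 0.12) and Aβ plus acetate against acetate 0.13 (SE 0.12).

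Ethe1, the mitochondrial persulfide dioxygenase that carries sulfide to sulfite, was the lowest member in CPM. It had 7.91, 5.59 and 6.30 CPM with Aβ plus acetate, 7.93, 6.66 and 5.42 CPM with acetate, and 8.96, 8.31 and 4.19 CPM in controls. The control libraries alone spanned the levels of the other groups, and the difference of acetate from control was 0.13 (SE 0.15), with 0.43 in set 2 and -0.11 in set 1. Aβ plus acetate stood at -0.01 (SE 0.14) against acetate and 0.12 (SE 0.15) against control. Its implied 149 to 511 reads per library give a counting error of 4.42 to 8.19%.

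Suox, the mitochondrial sulfite oxidase, which uses the molybdenum cofactor, had 43.6, 55.8 and 57.1 CPM with Aβ plus acetate, 43.8, 56.2 and 62.8 CPM with acetate, and 45.3, 43.3 and 51.7 CPM in controls. Its libraries of set 1 lay within 3 CPM of each other whatever the treatment. Acetate against control was 0.09 (SE 0.08), with 0.20 in set 2 and -0.02 in set 1. Aβ plus acetate stood at -0.05 (SE 0.08) against acetate and 0.04 (SE 0.08) against control.

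**Figure D2:**
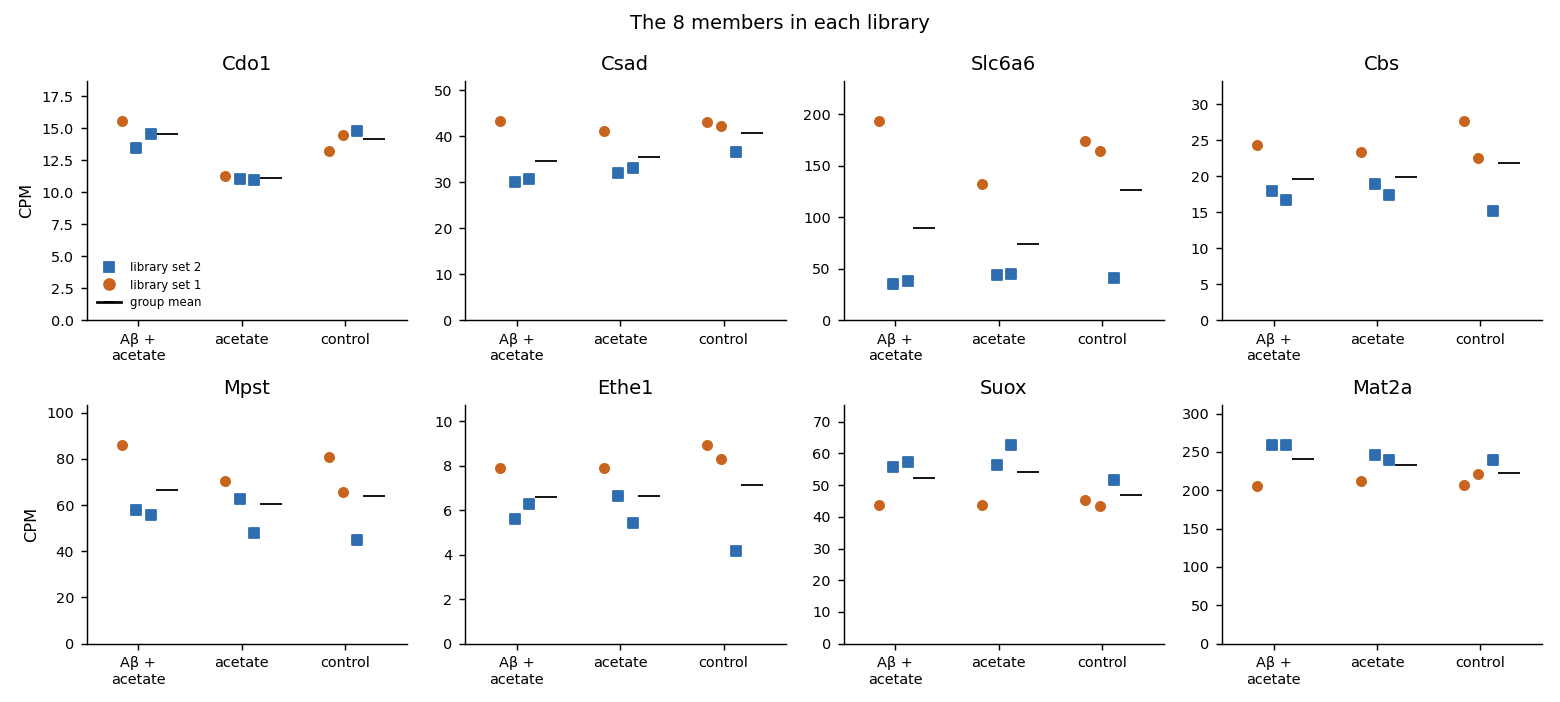
CPM of each of the 8 genes (vertical axes from 0, one scale per panel) in the 9 libraries by group, with blue squares for library set 2, orange circles for library set 1 and a dash for the group mean. Only Cdo1 has an acetate group clear of both others, while Slc6a6 lies above 100 CPM in set 1 libraries and under 50 CPM in set 2 libraries of every group.

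Across the 8 genes, 4 were higher and 4 lower with acetate than in control, with a median of 0.03, against -0.02 over all genes tested. Cdo1 and Csad were lower in both sets, no member was higher in both, and 6 had opposite signs. For Aβ plus acetate against acetate, 4 were higher and 4 lower. Cdo1 and Mpst were higher in both sets, Ethe1 and Suox were lower in both by less than their standard errors in the joint fit, and 4 had opposite signs. For Aβ plus acetate against control, 6 were higher and 2 lower, with a median of 0.04 against -0.0049 over all genes. The other 7 members had absolute fitted differences no larger than that of Mpst in this last comparison, 0.25, in any comparison.

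**Figure D3:**
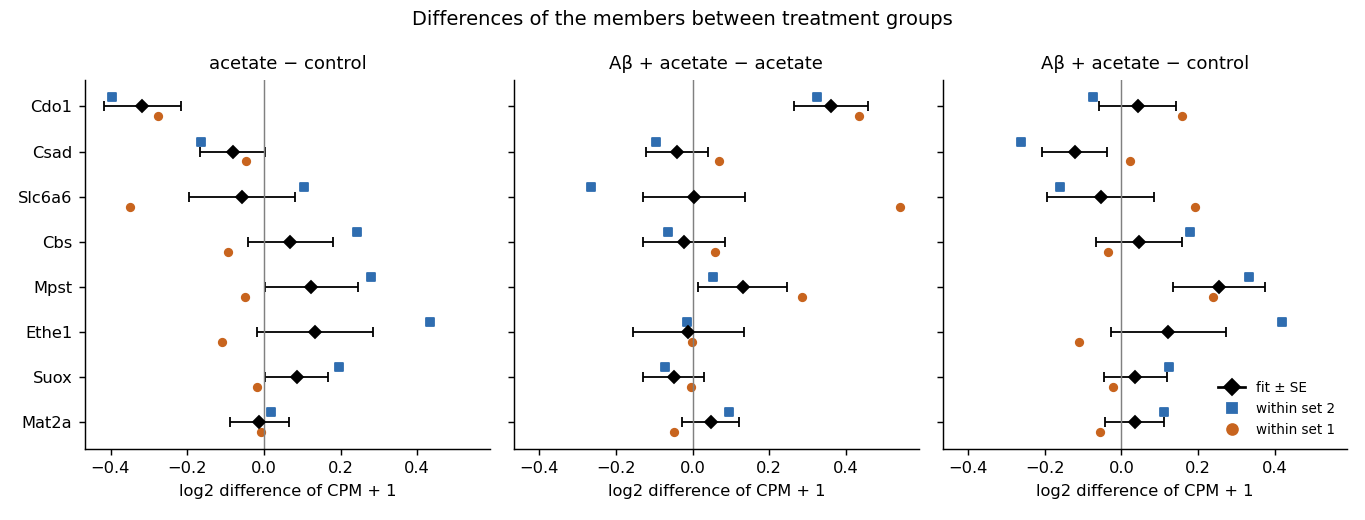
Difference of log2(CPM + 1) (horizontal axis) of the 8 genes in the 3 treatment comparisons, with black diamonds for the fit on 9 libraries ± SE, blue squares for the difference within library set 2 and orange circles for that within set 1. Cdo1 stands at -0.32 for acetate against control and 0.36 for Aβ plus acetate against acetate, with both sets on the same side of 0, while Slc6a6 has its sets on opposite sides.

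The library sets separated 7 of the 8 members without overlap, Cdo1 being the exception. Cdo1 averaged 12.9 CPM in set 2 and 13.7 CPM in set 1, a fitted difference of -0.03 (SE 0.08). Set differences here and below are of log2(CPM + 1) with treatment group in the model, so they can depart from the ratio of means. Slc6a6 had 40.7 CPM in set 2 and 166 CPM in set 1, which is 4.08-fold lower in set 2 (log2 difference -1.98, SE 0.12). Csad had 32.5 CPM in set 2 and 42.5 CPM in set 1 (-0.35, SE 0.07).

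Cbs had 17.2 CPM in set 2 and 24.5 CPM in set 1 (-0.50, SE 0.09). Mpst had 53.8 CPM in set 2 and 75.8 CPM in set 1 (-0.55, SE 0.10), and Ethe1 had 5.63 CPM in set 2 and 8.28 CPM in set 1 (-0.53, SE 0.12). In the other direction, Suox had 56.7 CPM in set 2 and 44.0 CPM in set 1 (0.34, SE 0.07). Mat2a had 249 CPM in set 2 and 211 CPM in set 1 (0.23, SE 0.06). So 5 members were entirely lower in set 2 (29.5% of all genes tested were) and 2 entirely higher (34.1% of genes). Sets that do not overlap were thus common among all genes tested.

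Stress genes also differed between the sets. Those checked were entirely higher in set 2, except Nqo1, which overlapped (11.4 CPM in set 2 and 13.7 CPM in set 1). Of the separated members, 5 were lower in set 2 and 2 higher. Atf4, the transcription factor of the amino acid response, had 671 CPM in set 2 and 106 CPM in set 1, and its target Asns had 287 CPM in set 2 and 19.0 CPM in set 1. The endoplasmic reticulum chaperone Hspa5 had 6715 CPM in set 2 and 589 CPM in set 1. The summed CPM of 8 fibroblast and meningeal markers was 943 to 1190 in set 2 and 2450 to 2680 in set 1, and that of 7 oligodendrocyte lineage markers was 138 to 204 in set 2 and 651 to 868 in set 1. The 8 microglia markers summed to 75.4 to 163 CPM in set 2 and 21.5 to 57.5 CPM in set 1, and the 10 astrocyte markers to 11100 to 13300 CPM in set 2 and 8690 to 10200 CPM in set 1. Markers of one list did not all move one way: of the astrocyte markers, Slc1a2, Slc1a3, Sox9 and S100b were entirely higher in set 2 while Aldh1l1 (194 to 281 CPM in set 2, 294 to 347 CPM in set 1), Aldoc and Atp1b2 were entirely lower. The oligodendrocyte lineage sum was mainly Olig1 (51.9 to 84.1 CPM in set 2, 491 to 634 CPM in set 1), and Mbp and Mog were entirely higher in set 2. Against the microglia sum, Tmem119 was entirely lower in set 2 (0.422 to 2.18 CPM, 2.26 to 4.19 CPM in set 1). The fibroblast and meningeal sum in set 2 was mainly Fn1 (875 to 1150 CPM). Col3a1 had 3.59 to 10.6 CPM in set 2 and 446 to 505 CPM in set 1, while Pdgfra ranged higher in set 2 (7.5 to 19.6 CPM, 2.66 to 7.79 CPM in set 1). Of the 5 endothelial markers, 4 were listed, and they summed to 35.2 to 51.8 CPM in set 2 and 34.1 to 38.8 CPM in set 1. Neuron markers summed to 474 to 523 CPM in set 2 and 521 to 634 CPM in set 1, and ependymal markers to 403 to 543 CPM in set 2 and 324 to 491 CPM in set 1. No marker was at 0 in all libraries. The part of stress and of other cell types in the set difference of the members was not tested. By treatment group all these sums overlapped, for example 1120 to 2680 CPM with Aβ plus acetate, 987 to 2590 CPM with acetate and 943 to 2570 CPM in controls for the fibroblast and meningeal markers.

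Compared per kilobase of annotated exon, the order of the members differed between the sets. In set 2 it ran Mat2a at 55.4 CPM per kb, Mpst at 25.1, Suox at 22.7, Csad at 8.48, Cdo1 at 7.88, Slc6a6 at 4.82, Ethe1 at 3.80 and Cbs at 2.30. The libraries of Mpst and Suox, of Csad and Cdo1, and of Slc6a6 and Ethe1 overlapped there. In set 1 it ran Mat2a at 47.1 CPM per kb, Mpst at 35.4, Slc6a6 at 19.7, Suox at 17.6, Csad at 11.1, Cdo1 at 8.30, Ethe1 at 5.58 and Cbs at 3.28, and only Slc6a6 and Suox overlapped. The change of order lies with Slc6a6, which stood below Csad and Cdo1 in set 2 and above both in set 1.

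Promoter windows are shown for a pair of members that were higher in set 2 and a pair that were lower. Sequences are those of RefSeq on GRCm38.p6, from 250 bases before to 50 after an annotated start (the one nearest to the deposited start). Such windows were searched for 6 of the 8 genes, and Cdo1 and Slc6a6 were not among them. The 4 windows are chr6:72439507-72439806 (Mat2a, minus strand), chr10:128673869-128674168 (Suox, minus strand), chr15:102205003-102205302 (Csad, minus strand) and chr15:78406462-78406761 (Mpst, plus strand). Capitals mark a TATA box (TATAAA) or a CCAAT box (CCAAT or its reverse complement), searched on both strands.
Mat2a: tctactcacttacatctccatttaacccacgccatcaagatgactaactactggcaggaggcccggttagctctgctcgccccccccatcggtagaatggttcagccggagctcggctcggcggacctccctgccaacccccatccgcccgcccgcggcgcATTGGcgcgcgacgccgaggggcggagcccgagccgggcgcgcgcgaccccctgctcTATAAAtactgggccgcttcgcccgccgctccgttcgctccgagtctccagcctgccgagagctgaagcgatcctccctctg
Suox: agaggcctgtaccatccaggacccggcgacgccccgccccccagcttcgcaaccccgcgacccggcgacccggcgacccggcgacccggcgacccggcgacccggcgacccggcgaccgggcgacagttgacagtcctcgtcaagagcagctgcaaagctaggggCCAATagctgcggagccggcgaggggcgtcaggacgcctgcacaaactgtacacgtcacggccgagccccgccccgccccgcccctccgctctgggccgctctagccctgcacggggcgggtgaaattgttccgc
Csad: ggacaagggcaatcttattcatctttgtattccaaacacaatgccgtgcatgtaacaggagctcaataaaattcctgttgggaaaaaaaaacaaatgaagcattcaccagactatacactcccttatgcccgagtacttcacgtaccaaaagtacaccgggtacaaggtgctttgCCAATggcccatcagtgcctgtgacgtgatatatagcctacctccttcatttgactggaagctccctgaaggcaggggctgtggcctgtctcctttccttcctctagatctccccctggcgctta
Mpst: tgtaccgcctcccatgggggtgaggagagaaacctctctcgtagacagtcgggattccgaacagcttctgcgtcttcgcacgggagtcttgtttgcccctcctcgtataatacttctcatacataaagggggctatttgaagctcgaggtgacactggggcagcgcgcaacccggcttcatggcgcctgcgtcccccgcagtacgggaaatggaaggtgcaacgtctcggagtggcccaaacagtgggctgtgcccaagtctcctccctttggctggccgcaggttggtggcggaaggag

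Mat2a holds the one TATAAA among the 6 windows, beginning 32 bases before its start, and 13.6% of 32851 promoter windows hold one. CCAAT was found in the windows of Mat2a, Suox, Csad, Cbs and Ethe1, and not in that of Mpst, against 37.4% of all windows. The core of the amino acid response element through which Atf4 acts (TGATGNAAN, 3.95% of all windows), the endoplasmic reticulum stress response element (CCAAT and CCACG with 9 bases between them, 0.119%, which overlaps the CCAAT box) and the core of the antioxidant response element (TGANNNNGC, 41.3%) matched none of the 6 windows. These letters being absent from 300 bases says nothing of the factors themselves.

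The deposited positions (mm10) put Mpst on chromosome 15, 78406712 to 78414016, plus strand. In GENCODE M21, Mpst and the divergent Tst are 508 bases apart. Tst encodes rhodanese, which also transfers sulfur, and it had 39.7 CPM in set 2 and 106 CPM in set 1. Csad lies on chromosome 15, 102176998 to 102205053, minus strand, and shares 1476 bases with Zfp740 on the other strand. Mat2a (chromosome 6, 72432796 to 72439557, minus strand) shares 508 bases with the RNA gene Particl, and Ethe1 (chromosome 7, 24587543 to 24608926, plus strand) shares 99 bases with Zfp575, both on the other strand. Slc6a6 (chromosome 6, 91684067 to 91759064, plus strand) contains 3 unclassified transcripts. Whether counting used strand is not given in the sources used here, so reads of these partners could not be told apart from those of the members. Suox (chromosome 10, 128669887 to 128673919, minus strand) and Cbs (chromosome 17, 31612623 to 31637206, minus strand) overlap no annotated gene.

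Other genes of the same pathways were read from 4 lists of 75 genes, 72 of them listed in the data and 64 tested. The limma fit called 0 of the 64 in each treatment comparison. Unadjusted p-values under 0.05 numbered 3 for acetate against control. With Aβ plus acetate they numbered 4 against acetate and 5 against control. Over all 14058 genes tested, the counts in the same order were 453, 436 and 505. The median difference over the 64 was -0.0077 for acetate against control, where that of all genes tested was -0.02. With Aβ plus acetate it was 0.02 against acetate (0.02 over all genes) and 0.0042 against control (-0.0049 over all genes).

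Among genes of cysteine sulfinate and taurine, 5 of 12 tested were higher with acetate than in control. With Aβ plus acetate, 10 of 12 were higher than with acetate, with a median of 0.13 against 0.02 over all genes, and 8 of 12 were higher than in control. Got1, the cytosolic aspartate aminotransferase, which also acts on cysteine sulfinate, had 33.6, 90.0 and 84.2 CPM with Aβ plus acetate, 28.5, 80.0 and 88.3 CPM with acetate, and 35.1, 37.2 and 89.5 CPM in controls. Its difference of acetate from control was -0.20 (SE 0.08, limma adjusted p = 1.00). Lrrc8d, a subunit of the volume-regulated anion channel through which taurine leaves cells, had a difference of Aβ plus acetate from control of 0.24 (SE 0.08, limma adjusted p = 0.999). It had 111 and 108 CPM with Aβ plus acetate in set 2, against 85.2 CPM in the control there, and 45.6 CPM with Aβ plus acetate in set 1, against 41.7 and 39.8 CPM in the controls. Pter, a hydrolase of N-acetyltaurine in mice, stood at -0.27 in that comparison (SE 0.10, limma adjusted p = 0.999). None of these passed, and the list held genes on either side of 0.

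Among genes of cysteine supply and glutathione, 12 of 21 were higher with acetate than in control, and with Aβ plus acetate 14 of 21 were higher than with acetate and 14 of 21 higher than in control. The medians were 0.01, 0.03 and 0.05 in that order, against -0.02, 0.02 and -0.0049 over all genes tested. Slc7a11, the cystine and glutamate exchanger that feeds cystine into astrocytes, had 18.5, 217 and 203 CPM with Aβ plus acetate, 5.49, 135 and 217 CPM with acetate, and 8.28, 12.5 and 196 CPM in controls. Its difference of Aβ plus acetate from acetate was 0.72 (SE 0.24, limma adjusted p = 1.00), with 0.29 in set 2 and 1.59 in set 1. Slc1a4, a transporter of small neutral amino acids, stood at -0.19 for acetate against control (SE 0.08), and Gclm, the modifier subunit of glutamate cysteine ligase, at 0.18 for Aβ plus acetate against acetate (SE 0.08), with limma adjusted p = 1.00 for both. Cth, cystathionine gamma-lyase, the partner of Cbs, had 16.0, 68.2 and 58.1 CPM with Aβ plus acetate, 20.0, 56.5 and 69.0 CPM with acetate, and 19.1, 19.4 and 59.3 CPM in controls. With the set in the model, Cth stood at 0.03 (SE 0.11) for acetate against control, and with Aβ plus acetate at -0.09 (SE 0.11) against acetate and -0.07 (SE 0.11) against control.

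In the methionine cycle, 3 of 11 tested genes were higher with acetate than in control. With Aβ plus acetate, 6 of 11 were higher than with acetate and 2 of 11 higher than in control. The medians of this list were -0.06, 0.0039 and -0.04 in that order. Mtr, methionine synthase, stood at -0.25 (SE 0.11) and Mat2b, the regulatory partner of Mat2a, at -0.18 (SE 0.08) for Aβ plus acetate against control, both with limma adjusted p = 0.999. Srm, spermidine synthase, stood at -0.17 (SE 0.08, limma adjusted p = 1.00) for acetate against control. In sulfide, sulfite and sulfate metabolism, 11 of 20 were higher with acetate than in control. With Aβ plus acetate, 12 of 20 were higher than with acetate and 10 of 20 higher than in control. Its medians were 0.0041, 0.01 and -0.0057 in that order. Papss2, which makes the activated sulfate donor, had 155, 59.9 and 68.3 CPM with Aβ plus acetate, against 105, 110 and 53.7 CPM in controls. Its difference was 0.37 (SE 0.09, limma adjusted p = 0.999), with 0.25 in set 2 and 0.53 in set 1. Selenbp1, a methanethiol oxidase, stood at 0.34 for acetate against control (SE 0.16, limma adjusted p = 1.00). Mocos, the sulfurase of the molybdenum cofactor, stood at 0.25 for Aβ plus acetate against control (SE 0.12, limma adjusted p = 0.999).

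**Figure D4:**
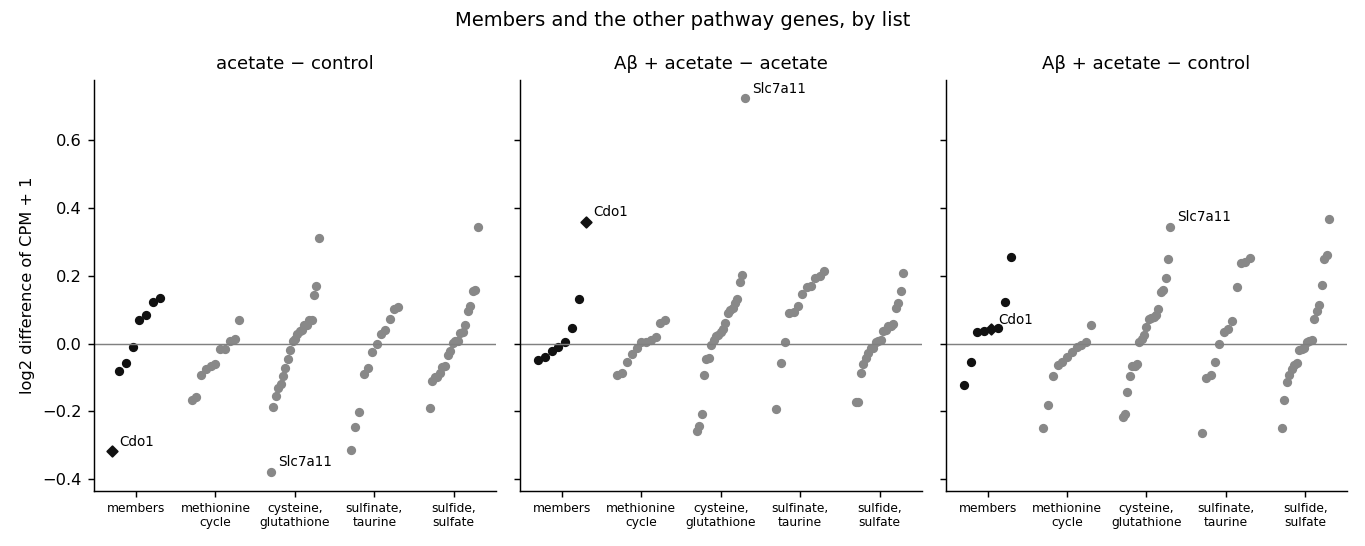
Difference of log2(CPM + 1) (vertical axis) of the 8 members, in black, and of the 64 other tested genes of 4 pathway lists, in grey, in the 3 treatment comparisons; a diamond marks Cdo1. Cdo1 is the lowest member at -0.32 for acetate against control and the highest at 0.36 for Aβ plus acetate against acetate, where Slc7a11 stands at 0.72.

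Between the library sets, the limma fit called 49 of the 64 genes, 31 higher and 18 lower in set 2, where it called 38.4% of all genes tested higher and 32.3% lower. Cth had 62.2 CPM in set 2 and 18.6 CPM in set 1 (log2 difference 1.69, SE 0.09), the opposite direction to Cbs, the enzyme before it in the same route. Slc7a11 had 194 CPM in set 2 and 11.2 CPM in set 1 (4.10, SE 0.21), and Got1 had 86.4 CPM in set 2 and 33.6 CPM in set 1 (1.39, SE 0.07). Papss2 had 60.3 CPM in set 2 and 121 CPM in set 1 (-1.06, SE 0.08). Among genes picked for the size of their difference after the values were seen, Chac1, which degrades glutathione, stood at 4.63, Tst at -1.48, and Vnn1, which releases cysteamine, at -2.64. Of 21 genes of cysteine supply and glutathione, 12 were called higher and 4 lower, and of 20 genes of sulfide, sulfite and sulfate, 8 were called higher and 8 lower. No difference between the lists was tested.

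**Figure D5:**
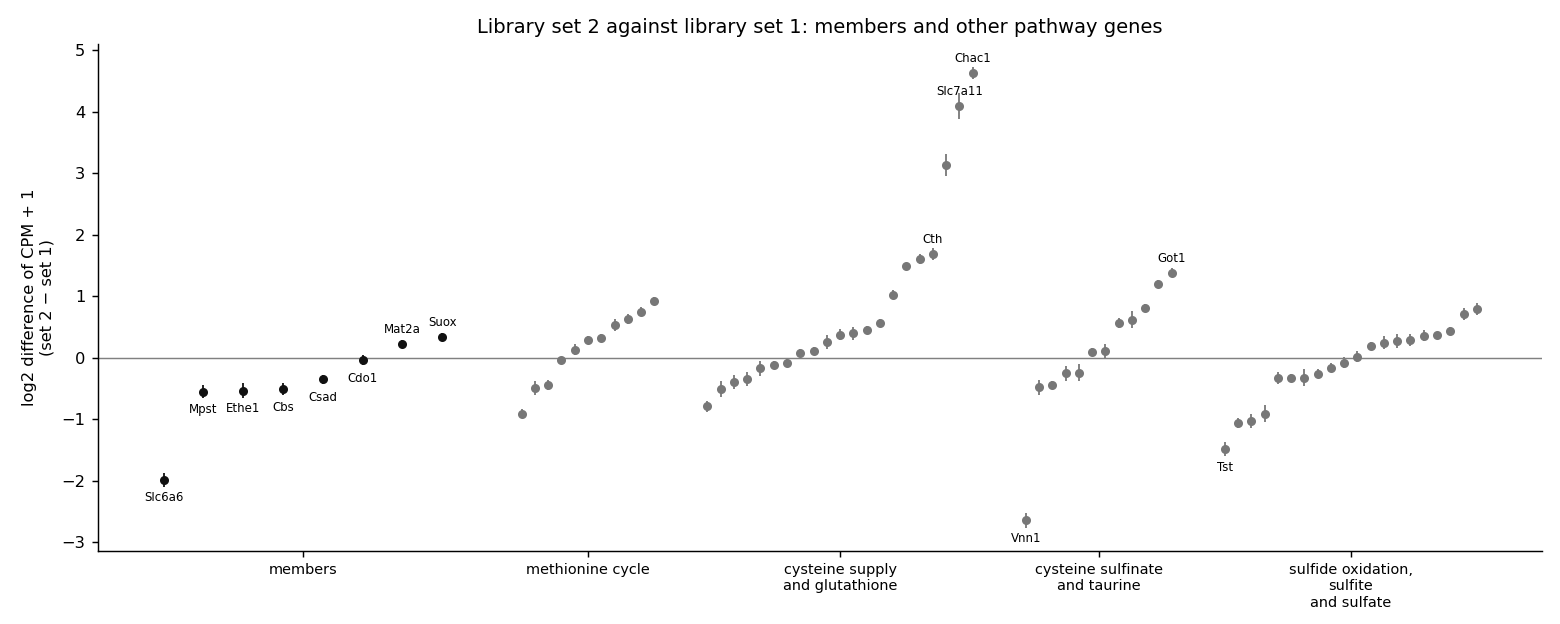
Fitted difference of log2(CPM + 1), with group in the model, of library set 2 minus library set 1 (vertical axis). Bars show the SE, with the 8 members in black and the 64 other tested genes of 4 lists in grey, sorted within each list. Slc6a6 is the lowest member at -1.98 and Suox the highest at 0.34, while Chac1, Slc7a11 and Cth lie at 4.63, 4.10 and 1.69.

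The genes whose pattern was most like that of Cdo1 over the 9 libraries, after removal of each set's mean, were Nt5dc3 (Pearson's r 0.962), Abcf3 (0.959), 4930563E22Rik (0.938), Zbtb3 (0.936) and Chek1 (0.933). Without that removal r was 0.11 for Nt5dc3, 0.18 for Abcf3, 0.77 for 4930563E22Rik, 0.19 for Zbtb3 and 0.94 for Chek1, so the likeness of most of them lies within the sets. Nt5dc3 had 31.6, 41.5 and 43.7 CPM with Aβ plus acetate, 26.4, 39.1 and 39.4 CPM with acetate, and 28.6, 30.9 and 43.7 CPM in controls. Chek1, a kinase of the DNA damage checkpoint, had 6.04, 5.95 and 5.50 CPM with Aβ plus acetate, 4.49, 4.27 and 4.02 CPM with acetate, and 5.16, 6.05 and 5.60 CPM in controls. These are the top 5 of 14058 genes and therefore selected for a high r. The other members were far from Cdo1 on the same measure, with r of 0.21 for Mat2a and Csad, 0.17 for Slc6a6, -0.01 for Mpst, -0.33 for Ethe1, -0.41 for Cbs and -0.55 for Suox.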

How the data were processed

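Poly(A) RNA of 9 cultures was sequenced as paired ends. The authors deposited CPM per gene (18061 genes, each library summing to 1000000), and the values were used as deposited. Per the submitters' processing notes, STAR 2.7.3a, Partek and FastQC were used, and mm10 and GRCm39 are named without roles. Deposited positions overlapped the GENCODE M21 (mm10) gene for 80 of 80 genes checked. Low CPM values implied 22155264 to 57027499 reads. Only 93.55 to 94.48% of them were whole multiples of 1 read within 0.1, so counts could not be rebuilt and a count test was left out.

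Genes with at least 1 CPM in at least 3 libraries (14058) were fitted as log2(CPM + 1) with limma 3.58.1 in R 4.3.3 (group and library set, trend and robust prior, 9 libraries, two-sided, Benjamini-Hochberg over all genes tested, threshold 0.05), after a test on simulated data. Fold changes on this scale understate those of low genes. The pathway genes named are the 3 of each list with the smallest unadjusted p in any comparison, and Cth. The genes most like Cdo1 are the 5 with the highest Pearson's r of set-centred values.

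The members, lists, library set term and tests were chosen with earlier results of these data known. Libraries sharing a number in their names had deviations from the group mean correlated above 0.1 in 7 of 7 pairs (0.761 to 0.947). With group and set removed this held for 0 of 7. That removal itself pushes correlations of such same-set pairs below 0, so it cannot show whether these numbers pair samples beyond the set. For numbers in the titles, 7 of 9 pairs were above 0.1 (-0.842 to 0.947) before removal of the set. After it 1 of 9 was, control 2 with Aβ plus acetate 2 (0.268). Alternatives were other pseudocounts, filters and scalings, no set term, both replicate blocks, quality weights, 2 groups alone and each library left out.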

Additional observations from a re-analysis of the deposited data

How the results depend on the processing

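The limma fits called 0 genes in each of 22 fits per comparison, over all genes and over the other pathway genes. Cdo1 kept its sign in all 23 alternatives for acetate against control (-0.40 to -0.24) and for Aβ plus acetate against acetate (0.28 to 0.43). Cdo1 was chosen for the low level of its acetate libraries, which lay below all others, so most alternatives could not reverse these signs. The count of kept signs therefore adds no support. Against control, Aβ plus acetate changed sign in 4 of 23 (-0.073 to 0.16). Cdo1 values moved by more than the residual SD in 6 cases. Without control 3, acetate stood at -0.24 against control, and Aβ plus acetate at 0.12. With a pseudocount of 5, Aβ plus acetate stood at 0.28 against acetate. Within set 2, acetate stood at -0.40 against control, and Aβ plus acetate at -0.073, while Aβ plus acetate stood at 0.16 within set 1. A larger pseudocount shrinks log differences by construction, and the cause of the others was not tested. Leaving out 1 library gave -0.36 to -0.24 for acetate against control, 0.30 to 0.41 for Aβ plus acetate against acetate and -0.033 to 0.12 for Aβ plus acetate against control.

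The replicate block by library number, whose pairing beyond the set could not be judged, gave Cdo1 -0.37 (SE 0.11) for acetate against control. It gave 0.36 (SE 0.10) for Aβ plus acetate against acetate and -0.0081 (SE 0.11) for Aβ plus acetate against control, and it changed no call. The title block gave -0.33, 0.36 and 0.03. For the other 7 members, 54 of 483 values moved by more than the residual SD, of which 24 came without the set term or with the title block, 20 within 1 set and 10 with 1 library left out. Slc6a6 moved most, to -0.72 without the set term for acetate against control and to 0.22 without acetate 1. Depth limits Ethe1 most, with 149 implied reads in control 3.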
